A study of Homo sapiens with 6 samples.

Results

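A set of 10 genes that report on or restrain ERK signalling were followed in K562 cells with and without hyperoside, namely the phosphatase genes DUSP4, DUSP5 and DUSP6, the Sprouty genes SPRY1, SPRY2 and SPRY4, the SPRED genes SPRED1 and SPRED2, and the transcription factor genes ETV5 and EGR1. They were chosen by symbol for their place in the pathway, with earlier results of these data known. All 10 were found among the 24960 genes of the deposited table. K562 is an established chronic myeloid leukemia (CML) line grown in suspension that carries the BCR-ABL fusion kinase, and hyperoside is a plant flavonol glycoside. The control group (3 libraries) and the hyperoside group (3 libraries, 2 mM per the study's text) both consisted of K562 cells with no genetic change named in the labels, and neither the labels nor the RNA sequencing methods give the treatment time or say whether the replicates were separate cultures, so the p-values measure the spread between these libraries, which may be technical. The comparison asks how hyperoside changes the transcriptome of CML cells.

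ERK is the last kinase of the RAS, RAF and MEK cascade, which growth factor receptors and oncogenic tyrosine kinases such as BCR-ABL switch on. Active ERK raises the transcription of its own inhibitors. Dual-specificity phosphatases (DUSPs) remove the activating phosphates from ERK, and Sprouty and SPRED proteins act upstream on the activation of RAS and RAF. ETV5, an ETS factor of the PEA3 group, and EGR1, a zinc finger factor induced within minutes of stimulation, are transcriptional outputs of the same cascade. The levels of these transcripts are often read together as a measure of ERK output, while phosphorylated ERK itself was not measured in these data.

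Between 35613283 and 36754725 counts fell on genes in each library. Of all genes, 15095 passed the filter on low counts and were tested with edgeR's quasi-likelihood test, and 6841 of them had an adjusted p under 0.05. The labels give bone as the tissue, and markers of K562 were checked in place of it. All 10 erythroid leukemia markers, among them GATA1, TAL1 and the embryonic and fetal globin genes, exceeded 1 FPKM (fragments per kilobase of gene, scaled to the library total). Their summed level was 7700 to 9556 FPKM in the control group and 5629 to 6803 FPKM in the hyperoside group. The sum was carried by the globin genes HBE1, HBG1 and HBG2, and the markers did not fall as a set. KLF1, an erythroid transcription factor gene, had 19.1 to 26.8 FPKM in the control libraries and 41.3 to 48.7 FPKM in the hyperoside libraries, and NFE2 and LMO2 were also higher without overlap. Most markers of other cell types were low. The summed level of 5 fibroblast and bone markers was at most 2.23 FPKM, that of 5 B cell markers at most 1.85 FPKM and that of the 2 monocyte markers listed in the table at most 0.119 FPKM, with MARCO at 0 counts in every library. Among 5 T and NK cell markers only CD3D exceeded 1 FPKM, and the list summed to between 35.3 and 42.7 FPKM in the control group and between 48.3 and 54.3 FPKM in the hyperoside group. Of the 4 epithelial markers listed in the table, KRT8, KRT18 and EPCAM exceeded 1 FPKM and CDH1 did not, and the sums of 476 to 522 FPKM and 487 to 503 FPKM overlapped between the groups. The part of these markers in the results that follow was not tested. In bulk RNA, fewer cells that express a gene and less of its RNA per cell cannot be told apart.

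The feedback and output genes did not move together. EGR1, SPRY2 and DUSP5 were higher in the hyperoside group, while ETV5 and SPRY4 were lower. Neither SPRED gene passed the test, SPRY1 and DUSP4 also did not, and DUSP6 had too few counts to be tested. So 9 of the 10 genes were tested, 3 were called higher and 2 lower at an adjusted p under 0.05, against 22.1% higher and 23.2% lower among all tested genes (45.3% together). EGR1 rose and ETV5 fell by more than 2-fold at an adjusted p under 0.05, which 6.43% of all tested genes did upward and 3.76% downward (10.2% together). The counts of the groups, scaled to library size as CPM, did not overlap in 6 of the 9 genes, against 54.4% of all tested genes. The median change of the 9 genes on the log2 scale was -0.058, and that of all tested genes was 0.0032.

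The genes lie on different chromosomes, except for EGR1 and SPRY4. In the GENCODE 29 annotation of GRCh38, EGR1 spans chr5:138465490-138469315 on the plus strand and SPRY4 chr5:142310427-142326455 on the minus strand. ETV5 is at chr3:186046308-186110318 and SPRY2 at chr13:80335976-80340951, both on the minus strand, and DUSP5 is at chr10:110497838-110511544 on the plus strand. The table gives a single count per gene and library, which does not separate isoforms, coding exons or untranslated regions.

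**Figure D1:**
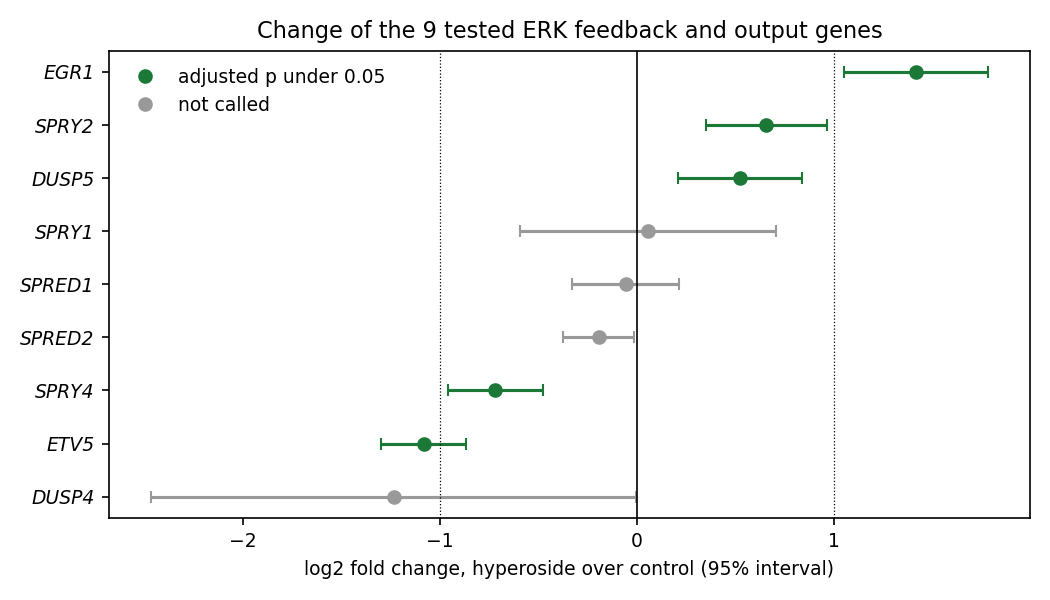
Log2 fold change of hyperoside over control (horizontal axis) for the 9 tested genes, with bars for the 95% interval of edgeR's quasi-likelihood fit on 3 libraries per group and dotted lines at a 2-fold change. EGR1, SPRY2 and DUSP5 lie to the right of 0 and SPRY4 and ETV5 to the left, and the interval of DUSP4 is the widest.

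Per gene length, EGR1 had the highest level of the 10 genes in both groups, with 15.6 ± 4.39 FPKM in the control and 43.3 ± 11.7 FPKM with hyperoside (SD over 3 libraries). The control order continued with SPRED2 at 9.92 ± 0.572 FPKM, ETV5 at 7.63 ± 0.497 FPKM and SPRY4 at 3.71 ± 0.354 FPKM, then DUSP5 at 3.002 ± 0.412 FPKM, SPRED1 at 2.39 ± 0.531 FPKM and SPRY2 at 1.82 ± 0.172 FPKM. SPRY1, at 0.546 ± 0.169 FPKM, DUSP6, at 0.107 ± 0.0697 FPKM, and DUSP4, at 0.0875 ± 0.0402 FPKM, came last. In the control group the ranges of the neighbours SPRY4 and DUSP5, DUSP5 and SPRED1, SPRED1 and SPRY2, and DUSP6 and DUSP4 overlapped, so these pairs could not be ordered beyond their spread. The hyperoside order was EGR1, SPRED2, DUSP5, ETV5, SPRY2, SPRED1, SPRY4, SPRY1, DUSP6 and DUSP4. There the ranges of DUSP5 and ETV5, SPRED1 and SPRY4, and DUSP6 and DUSP4 overlapped. SPRY4 thus stood at place 4 among the 10 in the control group and at place 7 in the hyperoside group, and SPRY2 moved from place 7 to place 5.

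**Figure D2:**
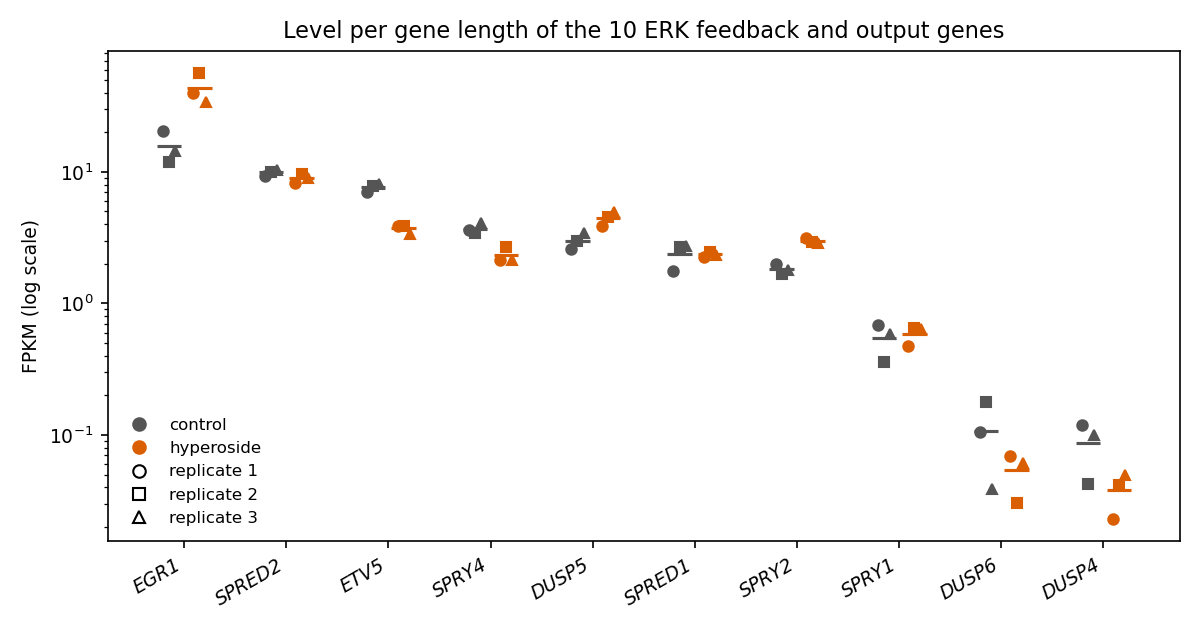
FPKM of the 10 genes in each library on a log axis, ordered by the control mean, with control libraries in grey, hyperoside libraries in orange, a marker shape for each replicate and a line at each group mean. EGR1 is at the top in both groups, and DUSP6 and DUSP4 lie below 0.2 FPKM in every library.

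Among DUSP4, DUSP5 and DUSP6 alone, nearly all of the level per gene length came from DUSP5. DUSP5, a nuclear phosphatase selective for ERK, contributed between 92.1% and 96.1% of the summed FPKM of DUSP4, DUSP5 and DUSP6 in the control libraries and between 97.7% and 98.4% in the hyperoside libraries. DUSP5 had 6.77, 7.41 and 8.48 normalized CPM in control replicates 1, 2 and 3 and 9.32, 11.1 and 12.2 in hyperoside replicates 1, 2 and 3. Every hyperoside library lay above every control library. The means were 7.55 ± 0.864 and 10.8 ± 1.43 CPM (SD, n = 3 each), and the log2 fold change was 0.52 (standard error 0.15, edgeR adjusted p = 0.00869, where the adjustment is that of Benjamini and Hochberg over all tested genes). Without hyperoside replicate 3, the highest library, the log2 fold change was 0.44 and the edgeR adjusted p was 0.0502, so the call was lost.

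DUSP4, a nuclear phosphatase of ERK and other MAP kinases, was close to the limit of detection. It had 32, 11 and 26 counts in control replicates 1 to 3, against 6, 11 and 13 counts in hyperoside replicates 1 to 3, so the groups overlapped. The log2 fold change was -1.24 with a 95% interval from -2.47 to -0.0034, and the adjusted p from edgeR was 0.0948, so DUSP4 was not called. This interval holds both a large fall and almost no difference.

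DUSP6, the cytoplasmic phosphatase that is selective for ERK, had 14, 23 and 5 counts across the control replicates, against 9, 4 and 8 across the hyperoside replicates, and did not pass the filter. The control libraries held 42 counts together (exact Poisson 95% interval 30.3 to 56.8) and the hyperoside libraries 21 (13.0 to 32.1), intervals that cover counting error only. The lowest control library lay within the range of the hyperoside libraries. With the filter removed, the log2 fold change was -1.03 and the edgeR adjusted p was 0.387. In the GENCODE 29 annotation, 40.5% of the exon bases of DUSP6 also lie in exons of AC024909.2 on the opposite strand. The sources used here do not say whether the counting used strand or how it treated reads in shared bases. Reads of DUSP6 from this stretch could therefore have been left out, and its level could be too low.

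The Sprouty genes went apart. SPRY2 and SPRY4 encode membrane-anchored inhibitors of receptor-driven RAS activation with a shared cysteine-rich domain. SPRY2 had 7.25, 5.82 and 6.21 CPM in control replicates 1, 2 and 3 and 10.5, 9.94 and 9.94 in hyperoside replicates 1, 2 and 3. Each hyperoside library exceeded each control library. The means were 6.43 ± 0.739 and 10.1 ± 0.349 CPM (SD, n = 3 each), at a log2 fold change of 0.66 (with standard error 0.15, edgeR adjusted p = 0.00135).

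SPRY4 had 27.0, 24.7 and 29.3 CPM across the control replicates, against 15.04, 19.1 and 15.1 across the hyperoside replicates. The groups did not overlap, with hyperoside replicate 2 the nearest to the controls. The level fell from 27.01 ± 2.27 to 16.4 ± 2.29 CPM (SD, n = 3 each), to 60.8% of the control mean, at a log2 fold change of -0.72 (with standard error 0.12, edgeR adjusted p = 6.66e-05). The antisense gene SPRY4-AS1, which shares no exon bases with SPRY4 in GENCODE 29, had 11 to 22 counts in the control libraries and 17 to 34 in the hyperoside libraries (log2 fold change 0.57, edgeR adjusted p = 0.381), far fewer than the 547 to 1046 counts of SPRY4. SPRY4-IT1, listed as a separate non-coding gene, had 1 count in hyperoside replicate 2 and 0 in the other libraries.

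SPRY1, the third Sprouty gene, had 2.53, 1.28 and 2.07 CPM across the control replicates, against 1.63, 2.26 and 2.21 across the hyperoside replicates. The groups overlapped. Its log2 fold change was 0.055 with a 95% interval from -0.60 to 0.71 (edgeR adjusted p = 0.898), an interval that still allows a change of the size seen for SPRY2.

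SPRY2 had the larger share per gene length with hyperoside, while SPRY4 kept more counts than SPRY2 in every library. In the sum of the Sprouty FPKM, SPRY4 held 61.1 ± 3.30% in the control and 39.4 ± 3.21% in the hyperoside group, and SPRY2 held 30.03 ± 2.09% and 50.6 ± 3.92% (SD, n = 3 libraries each). The share of SPRY1 was 8.87 ± 2.17% and 9.96 ± 1.51%. The log2 ratio of SPRY2 to SPRY4 CPM within a library was -1.89, -2.08 and -2.23 across the control replicates, against -0.51, -0.94 and -0.61 across the hyperoside replicates. It rose by 1.38 between the group means, and the groups did not overlap. Its p was 0.1 by exact permutation of the libraries (two-sided), the lowest value that 3 against 3 can give, and 0.2 after Benjamini-Hochberg adjustment over the 4 pairs tested. The log2 ratio of SPRY1 to SPRY2 differed by -0.57 between the groups, which overlapped (exact permutation p = 0.3, adjusted p = 0.4).

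**Figure D3:**
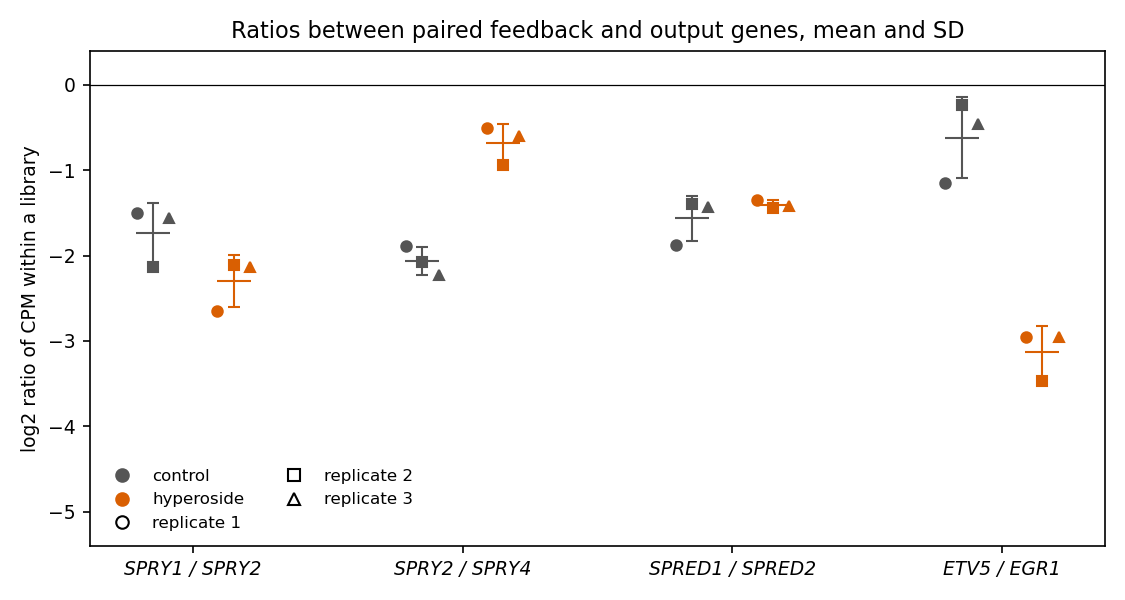
Log2 ratio of the CPM of paired genes within each library (vertical axis), with control libraries in grey, hyperoside libraries in orange, a marker shape for each replicate, and the mean and SD of each group. The groups are apart for SPRY2 over SPRY4, higher with hyperoside, and for ETV5 over EGR1, lower with hyperoside, and overlap for the other 2 pairs.

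The SPRED genes, which encode Sprouty-related inhibitors that bring the RAS regulator neurofibromin to the membrane, did not pass the test. SPRED2 supplied 80.8 ± 2.79% of the summed SPRED FPKM in the control and 79.1 ± 0.590% with hyperoside (SD, n = 3 each). SPRED2 had 60.6, 63.3 and 64.8 CPM across the control replicates, against 50.1, 59.1 and 55.6 across the hyperoside replicates. These values did not overlap, yet the log2 fold change was only -0.20, with a 95% interval from -0.37 to -0.017 and an adjusted p of 0.0696 from edgeR, so SPRED2 was not called. Leaving out control replicate 1 gave an edgeR adjusted p of 0.0250 and a log2 fold change of -0.22, and leaving out hyperoside replicate 2 gave 0.0477 and -0.25.

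SPRED1 had 16.5, 24.1 and 24.04 CPM across the control replicates, against 19.6, 21.7 and 20.7 across the hyperoside replicates. Control replicate 1 was the lowest of the 6 libraries and the other control replicates were the highest, so the groups overlapped. The log2 fold change was -0.058 with a 95% interval from -0.33 to 0.21 (edgeR adjusted p = 0.743), and without control replicate 1 it was -0.21 (adjusted p = 0.0825). The log2 ratio of SPRED1 to SPRED2 differed by 0.16 between the groups, which overlapped (exact permutation p = 0.5, adjusted p = 0.5 over the 4 pairs).

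The transcriptional outputs went in opposite directions, and both passed a 2-fold change. EGR1 had 67.2, 38.04 and 45.0 CPM in control replicates 1 to 3, against 121, 174 and 106 in hyperoside replicates 1 to 3. The lowest hyperoside library was above the highest control library, and the spread was wide in both groups. The means were 50.1 ± 15.2 and 134 ± 35.7 CPM (SD, n = 3 each), a 2.67-fold difference, at a log2 fold change of 1.42 (with standard error 0.17, edgeR adjusted p = 3.65e-06). Of all tested genes, 5.90% had a larger change in either direction. Without control replicate 1, which had the most EGR1 of its group, the log2 fold change was 1.69, and without hyperoside replicate 2, the highest of all, it was 1.18.

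The start of EGR1 shows the sequence feature for which the gene is a textbook example. CArG boxes are the sites of serum response factor (SRF), which works with ERK-phosphorylated partners of the ELK group to switch on immediate-early genes. The 250 bases before the RefSeq start of EGR1, on the plus strand of GRCh38.p14 at chr5:138465229-138465478, hold 2 CArG boxes, shown in capitals, at positions -105 to -96 and -83 to -74 from the start. Both strands were searched, and neither box overlaps the half-sites of the cyclic AMP response element (TGACG) in the same stretch.

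EGR1: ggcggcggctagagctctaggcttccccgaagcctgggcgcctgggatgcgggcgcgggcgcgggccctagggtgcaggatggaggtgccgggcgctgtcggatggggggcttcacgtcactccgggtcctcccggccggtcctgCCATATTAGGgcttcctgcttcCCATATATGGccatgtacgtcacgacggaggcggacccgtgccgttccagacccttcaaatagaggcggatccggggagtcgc

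A CArG box was present in 1.29% of the 35116 promoter windows (250 bases before to 50 after a start) in the RefSeq table, and 11 windows held at least 2. Of the 10 genes, 7 matched the table with 11 windows, and a CArG box was found only for EGR1 among them. DUSP4, DUSP5 and ETV5 were not matched. SRF, whose values had been seen when it was named, had 60.4 ± 5.20 CPM in the control and 65.8 ± 4.597 with hyperoside (SD, n = 3 each; log2 fold change 0.12, edgeR adjusted p = 0.273).

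The binding motif of EGR1, searched as GCGNGGGCG on both strands, was in windows of EGR1, SPRY1, SPRY2 and SPRY4, or 4 of the 11 windows, against 9.43% of all promoter windows. It matched the promoters of SPRY2, which was higher with hyperoside, and SPRY4, which was lower, alike. The stretch before a RefSeq start of SPRY2, on the minus strand of GRCh38.p14 at chr13:80341127-80341376, is shown because it held 2 matches, at positions -134 to -126 and -41 to -33, which are in capitals.

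SPRY2: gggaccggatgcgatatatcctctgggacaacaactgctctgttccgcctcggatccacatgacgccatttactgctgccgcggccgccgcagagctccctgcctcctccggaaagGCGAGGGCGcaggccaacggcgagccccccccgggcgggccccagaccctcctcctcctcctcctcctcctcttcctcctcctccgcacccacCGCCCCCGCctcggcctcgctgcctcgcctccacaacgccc

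A match to a motif in these windows is a description of the sequence and not a measured binding site. The ETS motif CCGGAAG was in 1 of the 11 windows, of SPRY1, against 10.3% of all windows. The AP-1 motif TGANTCA was in 1 window, of SPRED2, against 7.71%, and the half-site TGACG in 4 windows, of EGR1, SPRED2, SPRY2 and SPRY4, against 24.6%.

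ETV5 had 30.2, 32.2 and 32.6 CPM in control replicates 1, 2 and 3 and 15.6, 15.7 and 13.6 in hyperoside replicates 1, 2 and 3. The hyperoside libraries lay at less than 16 CPM and the controls above 30 CPM, so the groups were far apart relative to their spread. The level fell from 31.7 ± 1.32 to 14.9 ± 1.15 CPM (SD, n = 3 each), to 47.2% of the control mean, at a log2 fold change of -1.08 (with standard error 0.10, edgeR adjusted p = 1.67e-07). It had the smallest p of the 9 tested genes. On the same strand, 2.83% of the exon bases of ETV5 are shared with DGKG in GENCODE 29, on chromosome 3. How reads from that stretch were counted is not given, and they could have been counted for neither gene. The log2 ratio of ETV5 to EGR1 within a library was -1.15, -0.24 and -0.46 across the control replicates, against -2.96, -3.47 and -2.96 across the hyperoside replicates. It differed by -2.51 between the groups, without overlap (exact permutation p = 0.1, the smallest possible, adjusted p = 0.2 over the 4 pairs).

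The genes that ranked closest to EGR1 across the 6 libraries, by Pearson's r of log2 CPM, were TSC2 (0.997), AFF1-AS1 (0.996) and WDR73 (0.996). TSC2 encodes tuberin, an inhibitor of mTORC1 signalling. Its level was 44.3 ± 2.74 CPM in the control and 55.9 ± 3.18 with hyperoside (SD, n = 3 each), a much smaller difference than that of EGR1. These coefficients describe likeness over only 6 libraries that fall into the 2 treatment groups, and 22 of 15094 genes exceeded 0.99.

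EGR1 belongs to the immediate-early genes, which also answer to stress and to the handling of cells. FOS had 5.12, 4.09 and 6.21 CPM across the control replicates, against 8.53, 9.61 and 7.86 across the hyperoside replicates (log2 fold change 0.75, edgeR adjusted p = 0.00194). JUN rose from 170.4 ± 12.5 to 282 ± 49.4 CPM (log2 fold change 0.73, adjusted p = 1.55e-05). IER2 had 163 ± 24.9 and 158 ± 14.6 CPM, with overlapping groups and a log2 fold change of -0.047 (adjusted p = 0.716), which was slightly above 0 under 5 of its 15 alternatives. ATF3, a stress-induced repressor, fell from 120.4 ± 12.4 to 41.03 ± 6.88 CPM (log2 fold change -1.55, adjusted p = 4.88e-09; SD, n = 3 each, all p from edgeR). Of the 11 immediate-early genes listed, all were tested, 6 were called higher and 2 lower, against 22.1% higher and 23.2% lower among all tested genes, and the median change was a log2 of 0.31. Beside JUN and ATF3, the call with the smallest adjusted p was BTG2 upward (log2 fold change 0.80) and NR4A1 downward (-0.69). CCN1, which encodes a secreted matrix protein and was named after its values had been seen, was the one gene of this list to rise by more than 2-fold, from 2.16 ± 0.432 to 5.03 ± 0.505 CPM (SD, n = 3 each; log2 fold change 1.22, edgeR adjusted p = 2.57e-04). The rise of EGR1 stood beside rises of FOS and JUN and falls of ATF3 and NR4A1, and the part of cell handling in it was not tested.

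**Figure D4:**
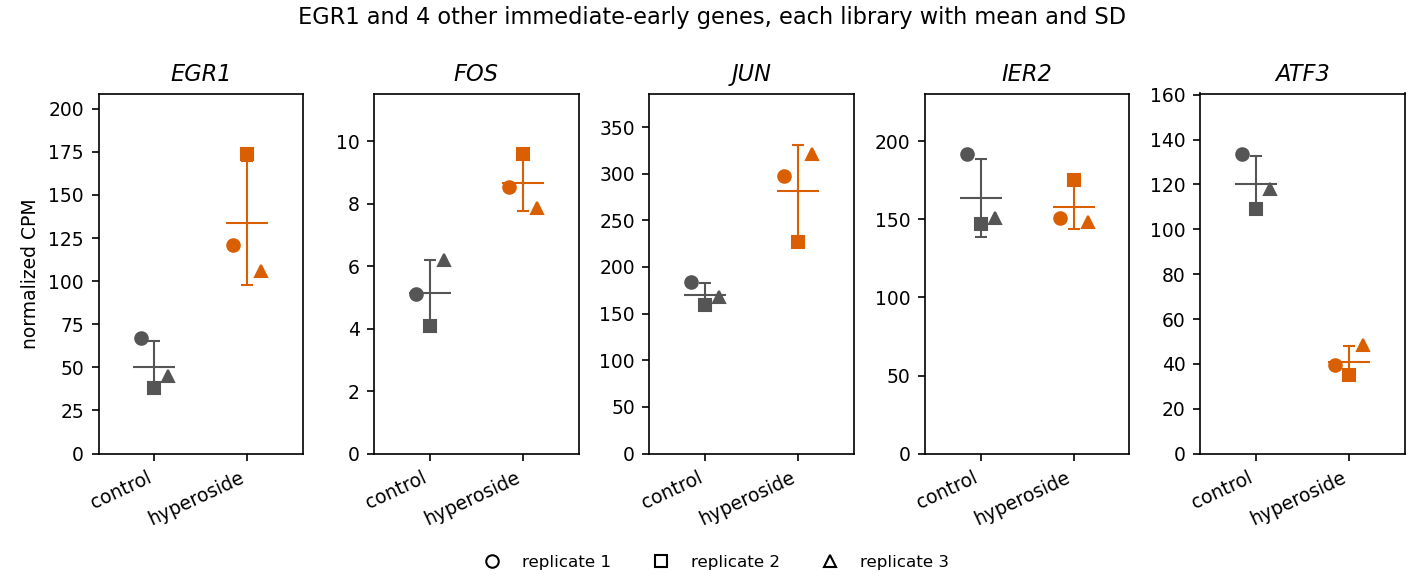
Normalized CPM of EGR1, FOS, JUN, IER2 and ATF3 in each library, with the group mean and SD, each panel on its own linear axis from 0. The 3 hyperoside libraries lie above the controls for EGR1, FOS and JUN, below them for ATF3, and among them for IER2.

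The relatives of ETV5 in the PEA3 group were also lower. ETV4, the second PEA3 factor, had 65.4, 47.5 and 49.1 CPM across the control replicates, against 35.4, 43.0 and 36.3 across the hyperoside replicates, without overlap (log2 fold change -0.50, edgeR adjusted p = 0.00191). ETV1, the third, fell from 31.01 ± 5.81 to 24.02 ± 1.59 CPM (SD, n = 3 each; log2 fold change -0.37, edgeR adjusted p = 0.0193). Its groups overlapped, and its call was lost in 7 of 15 alternatives, with an edgeR adjusted p of 0.0647 without control replicate 2, 0.114 without control replicate 3, 0.0627 without hyperoside replicate 2 and 0.101 without hyperoside replicate 3. With ETV5, all 3 PEA3 factors were called lower. Of the 7 listed relatives of the Sprouty, SPRED, PEA3 and EGR genes, 3 were tested, and the third, SPRED3, was not called. SPRY3 had 4 counts in hyperoside replicate 3 and 0 elsewhere.

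The other MAP kinase phosphatases mostly rose. Of 8 listed, 7 were tested, 5 were called higher and 1 lower, against 22.1% higher and 23.2% lower among all tested genes, and the median log2 fold change was 0.60. DUSP10, a phosphatase of the stress kinases JNK and p38, rose from 27.2 ± 2.98 to 54.5 ± 5.91 CPM (SD, n = 3 each; log2 fold change 1.004, edgeR adjusted p = 5.69e-07). DUSP8, which also acts on JNK and p38, rose from 5.94 ± 1.15 to 15.3 ± 2.56 CPM (log2 fold change 1.36, adjusted p = 2.97e-06). The other higher genes, named after their values had been seen, were DUSP1 (log2 fold change 0.72), DUSP16 (0.60), both active on JNK and p38, and DUSP7 (0.47), which prefers ERK and whose edgeR adjusted p was 0.0121, or 0.0578 without hyperoside replicate 3. DUSP9, another cytoplasmic ERK phosphatase, fell from 11.3 ± 2.23 to 7.47 ± 0.585 CPM (log2 fold change -0.60, edgeR adjusted p = 0.0047). Both ERK-selective relatives were therefore called, DUSP7 higher, like DUSP5, and DUSP9 lower.

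Other genes often used as ERK outputs were 12 in number, of which 10 were tested, 6 called higher and 1 lower, against 22.1% higher and 23.2% lower among all tested genes, and the median change was a log2 of 0.50. FOSL1, which encodes the AP-1 subunit FRA1, had 10.2, 7.87 and 6.55 CPM across the control replicates, against 25.1, 32.2 and 25.3 across the hyperoside replicates (log2 fold change 1.75, edgeR adjusted p = 5.18e-08). TRIB1, a pseudokinase gene, had a log2 fold change of 0.79 (adjusted p = 8.09e-06), and SPHK1, which encodes sphingosine kinase 1, had -0.34 (adjusted p = 0.0116, or 0.0725 without hyperoside replicate 1, all from edgeR). MYC and CCND1, named after their values had been seen, were not called, with 211 ± 25.01 and 215 ± 10.6 CPM for MYC and 13.5 ± 0.872 and 11.1 ± 1.66 CPM for CCND1 (SD, n = 3 each; edgeR adjusted p = 0.851 and 0.0976). Without hyperoside replicate 2 the edgeR adjusted p of CCND1 was 0.0316, at a log2 fold change of -0.41.

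Within the RAS-ERK cascade itself all 18 listed genes were tested, 4 were called higher and 5 lower, a share near the 22.1% higher and 23.2% lower of all tested genes, and the median log2 fold change was 1.3e-04. KSR1, a scaffold that holds RAF, MEK and ERK together, fell from 172 ± 8.11 to 103 ± 2.01 CPM (log2 fold change -0.74, edgeR adjusted p = 2.04e-07). GAB2, an adapter of BCR-ABL, rose by 0.32 and SOS1, an exchange factor that loads RAS with GTP, by 0.33 on the log2 scale (adjusted p = 0.00317 and 0.00722). MAPK3, an ERK gene named after its values had been seen, had 53.8 ± 2.98 and 39.6 ± 2.05 CPM and was called lower (log2 fold change -0.44, adjusted p = 4.3e-04; SD, n = 3 each, all p from edgeR).

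Of 13 other inhibitors of RAS and ERK signalling 11 were tested, 5 were called higher and 3 lower, against 22.1% higher and 23.2% lower among all tested genes, and the median change was a log2 of 0.11. The adapter genes LZTR1 (0.39), which directs RAS proteins to degradation, and DOK1 (0.55), a substrate of BCR-ABL, were the higher genes with the smallest adjusted p. RASA2 (-0.40), a GTPase-activating protein, and ERRFI1 (-0.35), an inhibitor of the EGF receptor, were the corresponding lower genes. The call of ERRFI1 was lost without control replicate 2 (edgeR adjusted p = 0.0564), control replicate 3 (0.0565) or hyperoside replicate 2 (0.0766). Of 10 regulators that pair with the ETS and EGR factors, 3 were called higher and 2 lower, a share near that of all tested genes, with a median of 0.0036. The higher ones included CIC, a repressor of PEA3-group genes, which rose from 40.7 ± 1.41 to 64.4 ± 2.20 CPM (SD, n = 3 each; log2 fold change 0.66, edgeR adjusted p = 3.82e-06), and the ETS repressor ETV6 (0.65). The lower ones were ELK4 (-0.53), an ETS partner of SRF, and NAB2 (-0.30), a corepressor that binds EGR1, whose call was lost without control replicate 2 (edgeR adjusted p = 0.129), hyperoside replicate 1 (0.0685) or hyperoside replicate 2 (0.0858). RASA2, ELK4 and ERRFI1 lost theirs with limma-trend on log2 FPKM, with either 1 or 0.1 added. NAB2 also lost its call with limma-trend and 1 added, and with library size alone. Of 7 ERK substrate kinases 2 were called higher and 3 lower, with a median of 0.17, again beside 22.1% and 23.2% of all tested genes. The calls with the smallest adjusted p were MKNK1 (0.54) and RPS6KA4 (0.47) upward and MKNK2 (-0.36) and RPS6KA1 (-0.32) downward, and RPS6KA5, named after its values had been seen, had the largest fall of this list (-0.53). In all, 77 genes of the 8 lists were tested, and 31 were called higher and 19 lower, or 64.9%, against 45.3% of all tested genes.

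**Figure D5:**
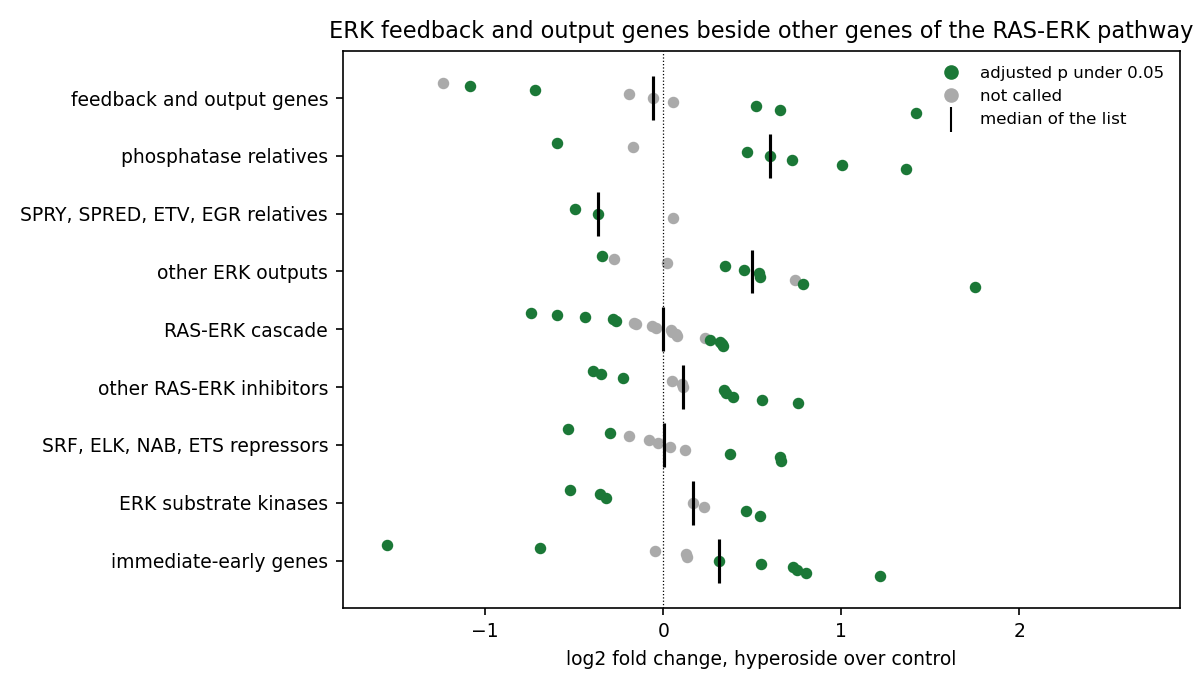
Log2 fold change of hyperoside over control (horizontal axis) for the 9 tested feedback and output genes and the tested genes of 8 related lists, each point a gene, green where the edgeR adjusted p was under 0.05 and grey where it was not, with a bar at the median of each list. The feedback and output genes spread to both sides of 0, and most points of the phosphatase relatives and of the other ERK outputs lie to the right of it.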

How the data were processed

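Total RNA of 6 K562 samples was sequenced on an Illumina instrument. Per the labels' processing notes, fastp, HISAT2, HTSeq and hg38 were used, with versions, annotation and use of strand not given in the sources used here. The authors deposited raw counts per gene and FPKM values, which are these counts scaled to gene length and library total. Condition and replicate number came from the sample titles, and the dose from the study's text. The study used the R package DESeq. Here counts were filtered with filterByExpr (minimum count 10, minimum total 15), normalized by TMM (factors 0.957 to 1.03) and compared with edgeR 4.0.16 in R 4.3.3, with treatment as the only term and Benjamini-Hochberg adjustment over 15095 genes. The standard error is the log2 fold change divided by the square root of F. FPKM served for levels between genes, sums of markers and an alternative test. Within-library log2 ratios used CPM with a prior count of 2.

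The 10 genes and all lists were chosen with earlier results of these data known, so they are not independent evidence. Named were the 10 genes, the 2 genes with the smallest adjusted p called in each direction of each list, FOS, JUN, IER2, ATF3, overlapping genes, and the 3 genes most like the called member with the largest change. Others are marked, and some genes of the lists are not reported here by name. The steps were tested on simulated counts. Alternatives used DESeq2 1.42.0 and limma 3.58.1. Positions are from GENCODE 29 and promoter sequences from RefSeq (GRCh38.p14). Tables were handled in Python 3.11.15 with pandas 2.3.3, and permutation tests with scipy 1.17.1.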

Additional observations from a re-analysis of the deposited data

How the results depend on the processing

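EGR1, SPRY2, SPRY4 and ETV5 stayed called in the same direction under each of the 15 alternatives, which changed the normalization, the test, the filter, the unit or left out a library. Their log2 fold changes ranged from 1.18 to 1.69, from 0.50 to 0.76, from -0.84 to -0.50 and from -1.12 to -0.87. DUSP5 ranged from 0.44 to 0.62 with libraries left out, and lost its call without hyperoside replicate 3. SPRED2 ranged from -0.25 to -0.13 and gained a call without control replicate 1 or hyperoside replicate 2. SPRY1, not called, ranged from -0.18 to 0.28 and was below 0 without control replicate 2 (-0.18) or hyperoside replicate 2 (-0.027). SPRED1, not called, ranged from -0.21 to 0.027 with libraries left out and was 0.0028 with limma-trend on log2(FPKM + 1) and 0.011 with 0.1 added. IER2 was 0.0051 with library size alone, 0.0084 and 0.0085 with limma-trend and 1 or 0.1 added, and between -0.13 and 0.088 with libraries left out, with the positive ones without control replicate 1 (0.088) and hyperoside replicate 3 (0.0087). MYC lay between -0.062, without control replicate 3, and 0.11. Limma-trend after adding 1 to FPKM, a setting that compresses low values, left fewer large changes, and 208 genes were higher and 136 lower by more than 2-fold, against 970 and 567, and 12 genes of the 8 lists were lower, against 19. At a fold change above 1.5, 1785 were higher and 1378 lower. The cause of the changes with single libraries was not tested.

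The deviations of same-numbered libraries correlated at -0.081, -0.033 and -0.034 over 15095 genes, which gave no sign of pairing by number. These values cannot show whether same-numbered libraries were cultured or processed together. With the replicate number as a block, 3026 genes were called higher and 3103 lower, against 3333 and 3508, and 3 of the 10 genes higher and 2 lower, as without it. No control library correlated best with the hyperoside library of its own number. At 3 libraries a group, DUSP4 and DUSP6 had at most 32 counts in a library, DUSP4 was not called under any alternative that tested it, and no exact permutation p under 0.1 was possible.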
